A study of Mus musculus with 9 samples.

Results

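The last part of mouse chromosome 4, from 140 Mb to the chromosome end, was examined for binding of DPPA4 in 3 cell lines. Its members are all deposited Dppa4 peaks on chromosome 4 that start at or above 140 Mb in the mm9 assembly, taken from the peak lists of 6 libraries and counted in 1 Mb bins. They number 3807 of 229345 peaks, and the rest of chromosome 4 holds 13236. The stretch was chosen by the positions and density of the peaks in these lists, so the number of peaks inside it is given as a description, with no test. Comparisons of its peaks with those of the rest of the chromosome are descriptions too.

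Chromatin bound by DPPA4 was immunoprecipitated with an antibody and sequenced (ChIP-seq), with 2 libraries per line. P19 is a mouse embryonal carcinoma line, able to differentiate, grown here in medium with 10% fetal bovine serum. The 3T3 cells are fibroblasts that carried Dppa4 ectopically, grown in the same serum level, and 3T3 cells without it were not analysed here. The E14 line consists of embryonic stem cells, kept on gelatin without feeders in 2i medium with 2% serum. The 3 input libraries, 1 per line, entered no comparison.

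DPPA4 is a nuclear protein with a SAP domain, a motif that contacts DNA, and it works as a partner of the related protein DPPA2. Both are made in early embryos and pluripotent cells and are switched off as cells differentiate, and they are known to help keep developmental gene promoters open to activation. Promoters of active or poised genes, often rich in CpG, are known places of DPPA4 binding. The far end of mouse chromosome 4 is known to be rich in genes and to correspond to the tip of the short arm of human chromosome 1. In the gene order of another assembly (GRCm38), 252 of the 1328 protein-coding genes of the chromosome lie beyond Pax7, a regulator of muscle and neural crest development. On the way to the chromosome end this order passes Nppa (a heart hormone), Mtor (a growth kinase), Casz1 and Prdm16 (zinc finger regulators), Ski (a repressor of TGF-beta signalling), Dvl1 (a Wnt pathway protein) and Isg15 (a ubiquitin-like protein induced by interferon). These names give the setting only. The mm9 peaks could not be placed on GRCm38 genes, so peaks stand without gene names, and no mm9 sequence was at hand to print.

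The 6 lists held between 15462 peaks (3T3 replicate 1) and 61693 peaks (E14 replicate 1), of which chromosome 4 took between 6.82% and 7.63%. The lists give no read counts, so the depth of sequencing is unknown. Each peak carries a score from the authors' peak caller, on a scale the files do not name, so scores were turned into percentile ranks within a list, with 100 for the strongest peak. The labels do not trace replicates 1 and 2 of a line to separate cultures, and their spread may be technical.

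Dppa4 peaks lay 1.83 to 2.98 times as densely in the distal stretch as in the rest of chromosome 4 in every library. In P19 the stretch held 611 and 804 peaks, or 39.1 and 51.4 peaks per Mb, against 17.2 and 21.7 per Mb in the rest of the chromosome. In 3T3 it held 182 and 238 peaks, or 11.6 and 15.2 per Mb, against 6.37 and 7.42 in the rest. In E14 it held 1195 and 777 peaks, or 76.5 and 49.7 per Mb, against 25.6 and 18.3 in the rest. All 6 libraries were thus denser in the stretch, with a density ratio of 2.32 ± 0.0721 in P19, 1.94 ± 0.158 in 3T3 and 2.85 ± 0.187 in E14 (distal over rest, SD, n = 2). The density was not particular to the stretch. As a comparison added after the data were seen, the adjoining 16 Mb, from 124 to 140 Mb, held 48 and 61.1 peaks per Mb in P19, 17.1 and 18.6 in 3T3, and 74.4 and 47.6 in E14. The stretch was thus less dense than the adjoining bins in P19 and 3T3 and about as dense in E14, and the ratio, distal over adjoining, was 0.814 and 0.842 for P19, 0.682 and 0.818 for 3T3, and 1.03 and 1.04 for E14. Neighbouring peaks started at a median distance of 8.29 and 7.05 kb in the stretch in P19, against 24.9 and 17.7 kb in the rest. In E14 the distances were 4.72 and 8.16 kb, against 14.9 and 25.3 kb, and in 3T3 30.3 and 25.3 kb, against 47.1 and 49.7 kb. Peaks covered 2.03% and 3.15% of the stretch in P19, against 0.926% and 1.38% of the rest, 0.542% and 1.39% in 3T3, against 0.330% and 0.723%, and 3.79% and 4.51% in E14, against 1.29% and 1.56%.

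As a share of the chromosome 4 peaks of a library, the stretch took 20.9% ± 0.514 in P19, 18.1% ± 1.21 in 3T3 and 24.5% ± 1.21 in E14 (SD, n = 2). The libraries of the lines did not overlap in this share, which was 20.6% and 21.3% in P19, 17.3% and 18.96% in 3T3, and 25.4% and 23.7% in E14. The order of the lines depended on the length of the lists. Cut to 15462 best-scoring peaks each, the lists gave shares of 17.5% in P19, 18.2% in 3T3 and 19.9% in E14.

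The bin just outside the threshold, from 139 to 140 Mb, held 44 and 65 peaks in P19, 7 and 6 in 3T3, and 80 and 47 in E14. The last peaks outside the stretch scored between 55.4 and 179 in the 6 libraries. The first peaks inside scored 572 and 468 in P19, 81.3 and 186 in 3T3, and 771 and 413 in E14.

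**Figure D1:**
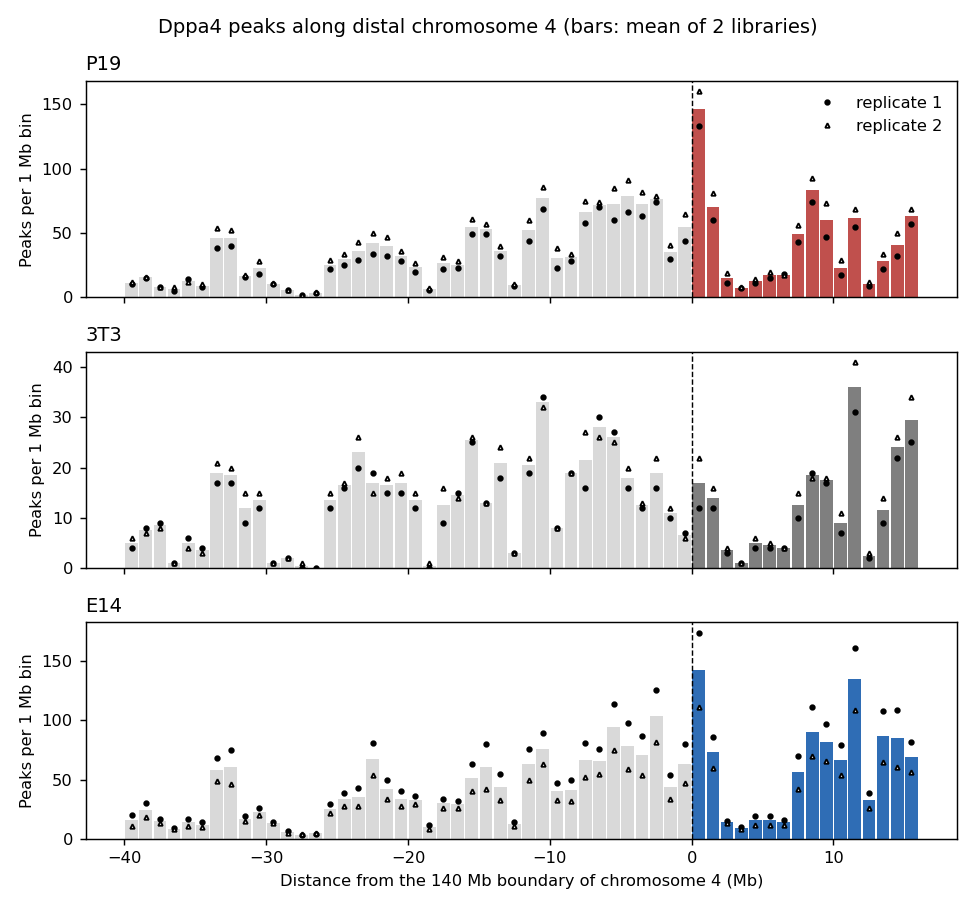
Dppa4 peaks per 1 Mb bin of chromosome 4 in P19, 3T3 and E14, against distance from the 140 Mb boundary in Mb (dashed line). Bars are the mean of 2 libraries, points are single libraries, grey bars lie outside the stretch, the last bin is partial, and the vertical scale differs between lines. By the mean, the first bin inside is the highest shown in P19 and E14, and the bin from 11 to 12 Mb in 3T3. In 3T3 replicate 1 the bin of chromosome 4 starting at 129 Mb, outside the stretch, held more peaks (34 against 31).

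Peaks were spread very unevenly inside the stretch. The fullest whole bin, from 140 to 141 Mb, held 133 and 160 peaks in P19 and 12 and 22 in 3T3, against 174 and 111 in E14. Only 2 bins of the assembled genome held more peaks in either P19 library, 3 did so in E14 replicate 1 and 4 in E14 replicate 2, of 2579 to 2583 bins with a peak. In 3T3 the same bin had 332 and 141 fuller bins. The next fullest bins by the mean over lines were 151 to 152 Mb and 148 to 149 Mb. From 151 to 152 Mb there were 55 and 69 peaks in P19, 31 and 41 in 3T3, and 161 and 109 in E14, and in both 3T3 libraries this was the fullest bin of the stretch. From 148 to 149 Mb there were 74 and 93 peaks in P19, 19 and 18 in 3T3, and 111 and 70 in E14.

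By the mean share over the 3 lines, the 3 emptiest bins lay side by side from 142 Mb on. In P19 and 3T3 alone, the bin from 152 to 153 Mb, with 9 and 12 peaks in P19 and 2 and 3 in 3T3, against 39 and 26 in E14, was emptier than the first and the last of them. The bin from 143 to 144 Mb held 7 and 8 peaks in P19, 1 and 1 in 3T3, and 10 and 8 in E14. The neighbouring bins on either side held between 11 and 19 peaks in P19 and E14 libraries and between 3 and 6 in 3T3. Peaks stayed sparse up to 147 Mb, and from 147 to 150 Mb the P19 and E14 libraries again held between 42 and 111 per bin. The partial last bin, from 155 Mb to the last peak end at 155630004, held 57 and 69 peaks in P19, 25 and 34 in 3T3, and 82 and 56 in E14.

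Libraries of the same line divided their peaks over the 16 bins in nearly the same way. Bin shares were compared by the part of a library's peaks that lay in other bins than in the second library. This part was 4.69% between the P19 libraries, 6.56% between the 3T3 libraries and 3.04% between the E14 libraries. Between lines the figure ranged from 16.4% to 19.8% for P19 with E14, from 15.6% to 18.2% for 3T3 with E14, and from 21.2% to 23.7% for P19 with 3T3. Of the 15 ways to pair 6 libraries, pairing by line gave the smallest mean, 4.76%, and the next pairing 12.8% (p = 0.067 by exact permutation, the lowest that 15 pairings allow). Each distance between lines was larger than each distance within a line. As the replicates of a line may be technical, this p does not measure how far separate cultures of a line would differ.

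The lines differed in a block from 150 to 155 Mb where P19 peaks were few beside E14 peaks. This block was chosen after the values were seen, for its low number of P19 peaks beside E14 peaks. All of its values are therefore a description, with no test, and its shares of peaks or regions found in the other line follow at least in part from that choice. It held 27.0 and 38.8 peaks per Mb in P19, 14.2 and 19 in 3T3, and 99.2 and 63.0 in E14. The P19 libraries were thus both below the E14 libraries, with means of 164.5 ± 41.7 peaks in P19, 83 ± 17.0 in 3T3 and 405.5 ± 128 in E14 (SD, n = 2). The ratio of P19 to E14 means was 0.406, against 0.887 in the rest of chromosome 4. Relative to the rest of the chromosome the ratio in the block was 0.458, and it ranged from 0.405 to 0.519 over the 4 pairs of single libraries. In the remainder of the stretch the ratio was 0.935, close to that of the rest of the chromosome.

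All 5 bins of the block had fewer than 0.5 P19 peaks for each E14 peak, with ratios of 0.346, 0.459, 0.323, 0.324 and 0.482 from 150 Mb on. Of the 748 bins of the genome with at least 40 E14 peaks in both libraries together, 11 had a ratio that low, or 1.47%, and 5 of these 11 were the bins of the block. None of the 42 such bins in the rest of chromosome 4 did, where the lowest ratio was 0.622. The other 6 bins lay on chromosomes 14 (3 bins), 3, 6 and 7, and the longest unbroken run elsewhere was 2 bins, on chromosome 14.

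In bins of 0.5 Mb the low ratios ran without a break over 11 bins, from 149.5 to 155 Mb. They ranged from 0.286 to 0.534 there. The other 12 distal bins of 0.5 Mb with at least 20 E14 peaks ranged from 0.731 to 1.24. The run was delimited by its low ratios, so this separation follows at least in part from that choice. Among bins with fewer E14 peaks, those starting at 142 and 143.5 Mb had ratios of 0.4 and 0.5, inside the range of the run. The bins on the 2 sides of the run had ratios of 0.912 (149 to 149.5 Mb) and 0.867 (155 to 155.5 Mb).

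**Figure D2:**
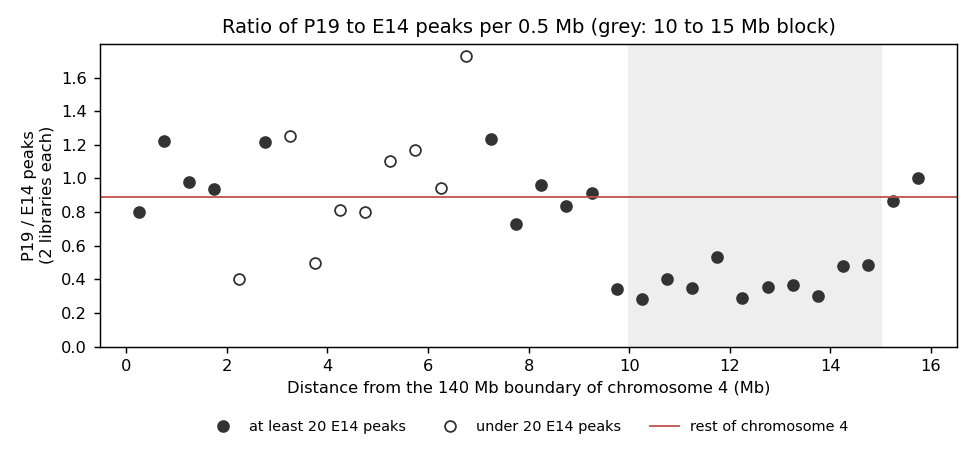
Ratio of P19 to E14 peaks (both libraries of each line summed) per 0.5 Mb bin against distance from the 140 Mb boundary in Mb. Filled points have at least 20 E14 peaks, open points fewer, the line marks the rest of chromosome 4 (0.887) and grey the block from 150 to 155 Mb. The points from 9.5 to 15 Mb lie between 0.286 and 0.534, below all other filled points.

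As a share of the chromosome 4 peaks of each library, the block took 4.54% and 5.14% in P19, 6.73% and 7.57% in 3T3, and 10.5% and 9.60% in E14. The 3 lines did not overlap. The difference, P19 minus E14, was -5.23 percentage points. With lists of 15462 peaks the block still held 43 and 38 peaks in P19, against 83 and 78 in E14, and the 3T3 libraries, with 71 and 79, then met the E14 range. Without the block, the distal share of chromosome 4 peaks was 16.8% and 17.0% in P19, 11.3% and 12.3% in 3T3, and 16.6% and 15.6% in E14. The order of P19 and E14 was thereby turned.

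The 3T3 libraries showed another course along the stretch. In the bins from 140 to 142 Mb they held 24 and 38 peaks, against 260 and 171 in E14, a ratio of means of 0.144. In the block from 150 to 155 Mb the ratio of 3T3 to E14 means was 0.205, and in the last bin 0.428, against 0.314 in the rest of chromosome 4. Set against P19, the 3T3 ratio was 0.143 in the bins from 140 to 142 Mb, 0.505 in the block and 0.468 in the last bin, against 0.354 in the rest of the chromosome.

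A smaller share of E14 peaks had a counterpart in P19 in the block than in the rest of the chromosome. Over the whole lists, 68.4% of the peaks of E14 replicate 1 and 79.8% of those of E14 replicate 2 overlapped a peak of either P19 library. In the block the shares were 37.7% (187 of 496) and 49.8% (157 of 315). In the remainder of the stretch they were 66.8% and 79.7%, and in the rest of chromosome 4 69.5% and 80.7%. The block thus lay below the whole-list level in both E14 libraries, as its choice implies, and the remainder of the stretch lay near it. The mean share of the block, 43.8%, was 28.7% without P19 replicate 2, when fewer P19 peaks enter. No matching share of the rest of the chromosome is given for this omission. Under it, the ratio of P19 to E14 peaks in the block relative to the rest was 0.424, against 0.458 with all libraries.

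In the opposite direction P19 peaks of the block were found in E14 more often than in the rest of the chromosome. Over the whole lists, 85.9% of the peaks of P19 replicate 1 and 80.0% of those of P19 replicate 2 overlapped a peak of either E14 library. In the block the shares were 92.6% and 90.2%, against 86.4% and 80.8% in the rest of chromosome 4. In the bins from 140 to 142 Mb they were 71.0% and 70.1%, below the whole-list level.

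The 3T3 peaks of the block were mostly found in E14 and less so in P19. Whole lists gave 83.7% and 83.0% for 3T3 peaks with a peak of either E14 library, and the block gave 91.5% and 85.3%. For a peak of either P19 library, whole lists gave 77.9% and 78.2%, while the block gave 64.8% (46 of 71) and 61.1% (58 of 95). In the last bin, beyond the block, 96.0% and 79.4% of the 3T3 peaks had a P19 peak.

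The shortfall of P19 peaks in the block was present at every score rank of the E14 peaks. Among E14 peaks up to the 25th percentile of their list, 12.1% and 20.6% of those in the block had a P19 peak, against 33.5% and 52.7% in the rest of chromosome 4. Between the 50th and 75th percentile, 47.9% and 68.0% did so, against 86.3% and 93.9%. Among those above the 75th percentile, 86.7% (72 of 83) and 94.5% (52 of 55) did so, against 98.8% and 99.3%. The strongest E14 peaks of the block thus mostly had a P19 peak. In percentage points the gap to the rest of the chromosome was smallest among them, where the rest lay close to the upper limit. Relative to the rest, block peaks without a P19 peak were in greater excess above the 75th percentile than up to the 25th.

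**Figure D3:**
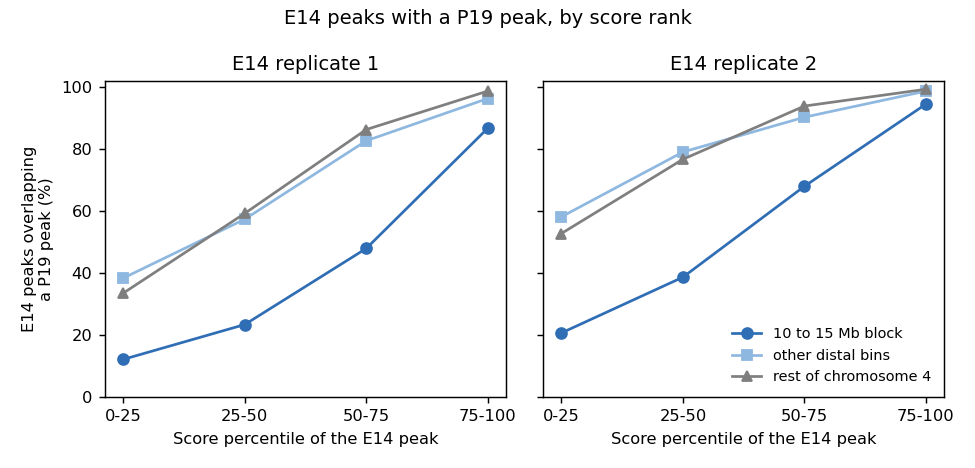
Share of E14 peaks (%) that overlap a peak of either P19 library, by the score percentile of the E14 peak, for each E14 library. Lines show the block from 150 to 155 Mb (10 to 15 Mb past the boundary), the other distal bins and the rest of chromosome 4. The block lies lowest in every rank class of both libraries, from 12.1% and 20.6% to 86.7% and 94.5%.

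Where both lines had a reproducible region in the block, its P19 peak ranked lower in the P19 lists and its E14 peak higher in the E14 lists than in the rest of the chromosome. A reproducible region is the union of overlapping peaks of both libraries of a line. Over the 89 regions of the block held by P19 and E14, the median percentile was 57.6 and 56.7 in P19, against 65.0 and 71.8 over the 1523 such regions in the rest of chromosome 4. In E14 it was 81.7 and 72.3, against 76.8 and 67.0. The share of E14 block peaks with a P19 peak rose with score rank, so these 89 regions do not stand for all E14 peaks there. Over all E14 peaks of the block the median percentile was 46.6 and 42.9, below the 50.1 and 50.4 of the rest. Over all P19 peaks of the block it was 41.9 and 37.9, against 49.96 and 51.2.

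Merged over the lines, the stretch held 769 reproducible regions. Regions of E14 alone numbered 266 of 769, or 34.6% (Wilson 95% interval 31.3 to 38.0). They made up 20.3% in the rest of chromosome 4 and 22.0% over all regions of the genome. Alone means without a reproducible region of another line, so other lines can still have a peak there. Of the 266, 54.5% had no peak in any P19 or 3T3 library, against 47.8% of the 538 regions of E14 alone in the rest of chromosome 4. No such share over all regions of the genome is given. Regions of E14 and P19 without 3T3 numbered 257, or 33.4%, against 42.2% in the rest of the chromosome and 40.2% over all regions. The order of these combinations turned in shorter lists and without P19 replicate 1. Among the best-scoring 50% of peaks, E14 and P19 held 139 regions and E14 alone 123, with 15462 peaks per list 81 and 39, and without P19 replicate 1 343 and 180. Wilson intervals cover counting error only and treat neighbouring peaks as independent. Regions held by all 3 lines numbered 84, or 10.9%, against 15.2% in the rest and 15.4% over all regions. The remainder comprised 109 regions of P19 alone, 33 of E14 and 3T3, 17 of 3T3 alone and 3 of P19 and 3T3. In that order these were 14.2%, 4.29%, 2.21% and 0.390%, against 13.8%, 3.54%, 3.84% and 1.17% in the rest. The share of P19 alone was thus close to that of the rest. Of the 109, 54 (49.5%) had no peak in any E14 or 3T3 library, against 42.5% of the 367 regions of P19 alone in the rest. Of the 17, 6 (35.3%) had none in E14 or P19, against 42.2% of the 102 regions of 3T3 alone in the rest. The counts of regions depend on the need for a peak in both libraries of a line and, for the smaller groups, on few regions. Where 1 library was left out, every peak of the other library of that line counted as a region. E14 alone held 710 without E14 replicate 2, P19 alone 300 without P19 replicate 1 and 185 without P19 replicate 2, and 3T3 alone 58 without 3T3 replicate 1, 31 without 3T3 replicate 2 and 11 without P19 replicate 1. E14 and 3T3 held 17 without P19 replicate 1 and 51 without 3T3 replicate 1. P19 and 3T3 held 9 without P19 replicate 1, 6 without 3T3 replicate 1 and 1 without E14 replicate 1.

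The block, chosen for few P19 peaks, held 155 regions of E14 alone among 275, or 56.4%, and the remainder of the stretch 111 among 494, or 22.5%, close to the level over all regions. Of the 155, 93 (60.0%) had no peak in any P19 or 3T3 library, against 47.8% of the regions of E14 alone in the rest of chromosome 4. Regions of P19 alone numbered 8 in the block, or 2.91%, against 101 in the remainder of the stretch, or 20.4%, and 13.8% in the rest of chromosome 4. In the last bin 16 of 53 regions were held by all 3 lines, or 30.2% (19.5 to 43.5).

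**Figure D4:**
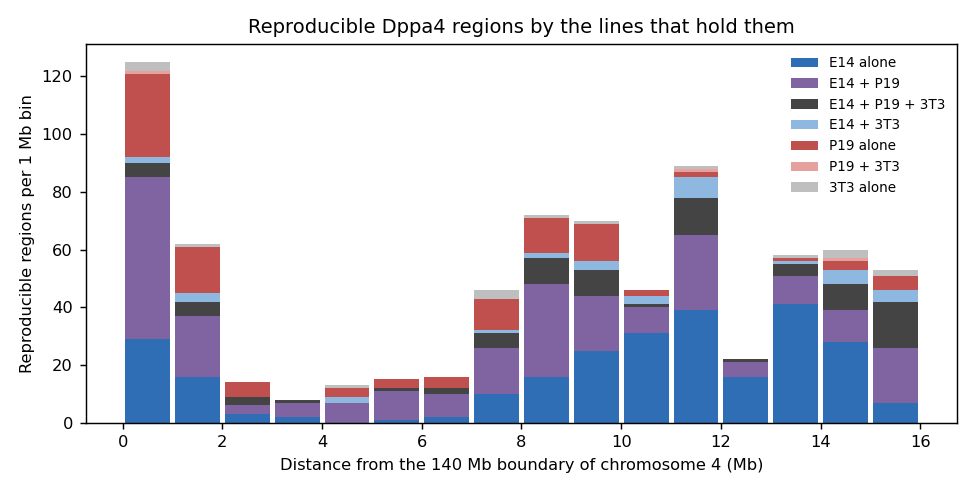
Reproducible Dppa4 regions per 1 Mb bin against distance from the 140 Mb boundary in Mb, stacked by the lines that hold them. The last bin is partial. Regions of E14 alone (dark blue) make up 155 of the 275 regions from 10 to 15 Mb, where regions of P19 alone (red) number 8.

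Between lines, 76.4% (72.4 to 80.0) of the 475 P19 regions of the stretch overlapped an E14 region, against 79.6% in the rest of chromosome 4. Of the 646 E14 regions 53.4% (49.5 to 57.2) overlapped a P19 region, against 70.6% in the rest. Within the block this share was 34.1% of 261 E14 regions, and in the remainder of the stretch it was 66.5% of 385. Of the 137 distal 3T3 regions, 85.4% overlapped an E14 region and 63.5% a P19 region, against 79.3% and 68.3% in the rest of the chromosome. The Wilson intervals of these 3T3 shares were 78.5 to 90.3 and 55.2 to 71.1. They cover counting error only, so they do not decide whether the stretch differs from the rest. With lists of 15462 peaks each the shares of 3T3 regions were 34.1% with E14 and 28.1% with P19.

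Replicate libraries shared distal peaks somewhat less often than other peaks. Of the distal peaks, 82.5% and 60.4% in the P19 libraries overlapped a peak of the other library, against 88.3% and 66.9% in the rest of chromosome 4 and 87.7% and 65.2% over the whole lists. In 3T3 the shares were 87.9% and 57.6%, against 87.6% and 63.1% in the rest and 86.8% and 63.9% over the whole lists. In E14 they were 63.3% and 83.9%, against 67.5% and 87.1% in the rest and 66.7% and 86.5% over the whole lists. The share was below that of the rest in 5 of 6 libraries. In the block alone it was 81.5% and 56.7% in P19, 88.7% and 53.7% in 3T3, and 62.1% and 84.1% in E14.

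Distal peaks of P19 and E14 ranked slightly lower than peaks elsewhere on the chromosome. The median percentile of the distal peaks was 44.5 and 43.2 in P19, against 49.96 and 51.2 in the rest. In E14 it was 46.4 and 43.5, against 50.1 and 50.4. In 3T3 it was 50.1 and 51.0, against 53.5 and 49.6, so the 3T3 libraries differed in direction. Median widths were close, at 432 and 503.5 bp in P19 against 444 and 543 bp, 398 and 820 bp in 3T3 against 431 and 879 bp, and 407 and 814 bp in E14 against 411 and 774 bp. Peaks at the score where many peaks are tied, 3100, or above it numbered 11 and 14 in the stretch in P19, 0 and 0 in 3T3, and 4 and 0 in E14. In P19 this was 1.8003% and 1.74% of the distal peaks, against 3.47% and 4.10% of the peaks in the rest of chromosome 4 and 3.50% and 4.12% over the whole lists.

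The sparse bins from 142 to 147 Mb held few but high-ranking peaks in P19 and E14. Over all of these bins, the 62 and 78 P19 peaks had a median percentile of 65.8 and 59.5, and the 79 and 57 E14 peaks one of 63.8 and 63.2. These medians lay 15.8 and 8.25 points above the rest of chromosome 4 in P19 and 13.7 and 12.8 points above it in E14. For the 16 and 20 peaks of these bins in 3T3 the differences were -22.7 and -9.12 points. Of the 11 and 14 distal P19 peaks at 3100 or above, 7 and 9 lay in these bins. The bins from 140 to 142 Mb, in contrast, lay below the rest of the chromosome in all 6 libraries, with differences from -15.3 to -2.41 points.

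**Figure D5:**
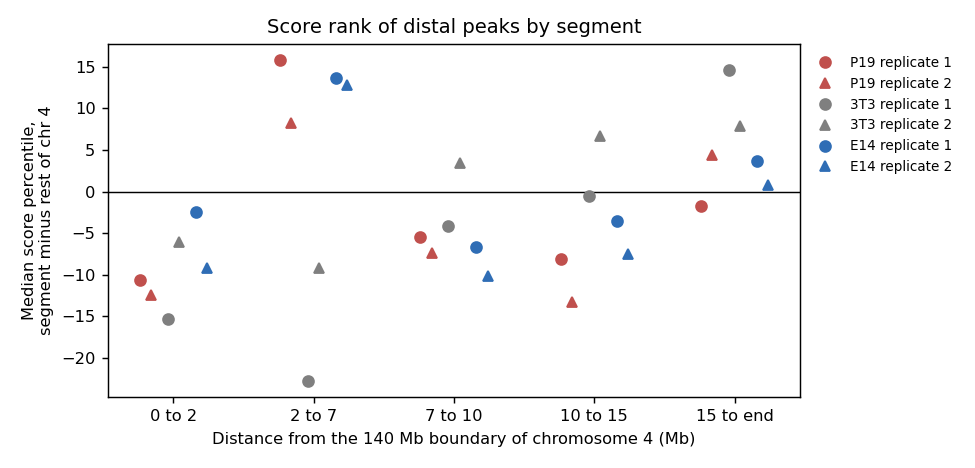
Median score percentile of the peaks of a segment minus that of the rest of chromosome 4 (percentile points), by segment in Mb past the 140 Mb boundary, for each library. From 2 to 7 Mb the P19 and E14 libraries lie 8.25 to 15.8 points above the rest, and the 3T3 libraries below it (-22.7 and -9.12 points).

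Reproducible regions are named by their mean score percentile, the 2 leading ones of each combination of lines. Those of E14 and P19 lay in the sparse bins. The first, at chr4:144242005-144243332, scored 3100 and 3100 in P19, 60.8 in 3T3 replicate 2 with no peak in 3T3 replicate 1, and 2516 and 2468 in E14. Its neighbour at chr4:144190527-144191992 scored 3100 and 3100 in P19, 55.1 in 3T3 replicate 2 alone, and 2466 and 2022 in E14. Scores can be compared only within a list.

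Regions held by all lines were led by 2 in the last bins. The first, at chr4:154333842-154336283 in the block, scored 3100 and 3137 in P19, 434 and 981 in 3T3, and 1214 and 765 in E14. Strong P19 peaks were thus present inside the block. The second, at chr4:155609568-155610937 near the last peak of the chromosome, scored 1090 and 531 in P19, 919 and 1122 in 3T3, and 1536 and 770.4 in E14.

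The leading regions of E14 alone both lay in the block. The region at chr4:150270921-150272842 had no peak in P19 or 3T3 and scored 761 and 415 in E14. The region at chr4:153714708-153716506 scored 56.7 in P19 replicate 1 and 616 and 439 in E14. The leading regions of P19 alone lay outside it. The region at chr4:155148160-155149014 scored 517.0 and 517.2 in P19, 120.5 in 3T3 replicate 2 and 103.2 in E14 replicate 2, and the region at chr4:146594151-146594919 scored 457 and 467 in P19 and had no other peak.

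Regions that combine 3T3 with 1 pluripotent line were few, and the 4 leading ones lay outside the sparse bins. The first region of E14 and 3T3, at chr4:149328064-149329627, scored 161 in P19 replicate 2, 363 and 855 in 3T3, and 234 and 316 in E14. The next, at chr4:155108338-155110316, scored 122.5 in P19 replicate 2, 220 and 701 in 3T3, and 348 and 263 in E14. The leading region of P19 and 3T3, at chr4:154597116-154598033, scored 108 and 92.5 in P19 and 180 and 318 in 3T3, with a single E14 peak at 78.1 in replicate 2. The next, at chr4:140856949-140858457, scored 114 and 256 in P19 and 67.6 and 249 in 3T3, with a single E14 peak at 162 in replicate 2. The leading regions of 3T3 alone were chr4:155483595-155484497, with scores of 312 and 348 in 3T3, and chr4:147461723-147462434, with scores of 173 and 169. The first also had a peak in P19 replicate 2 at 51.65 and in E14 replicate 2 at 95.3, and the second one in P19 replicate 2 at 73.7.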

How the data were processed

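Each immunoprecipitated library has 1 deposited peak list, which gives the position, name and score of each peak. Libraries came from sonicated nuclei and a Nextera kit, per the labels' protocols. Per the submitters' processing notes, the tools were CASAVA 1.8, bcl2fastq 1.8, BWA 0.7.13-r1126 and SAMtools 1.3, and the build was mm9. Peak names begin with MACS, per the deposited files. For the peak caller, version, threshold and use of the input were not stated in the sources at hand. The deposited score starts at 50, and its scale is not named. Every library has its own list, so replicates were not pooled. A missing peak can thus be a site not bound or one below detection.

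Coordinates are 1-based. A peak or region belongs to the stretch by its start. Lists overlap where peaks share at least 1 bp. Densities are over 15.6 Mb of the stretch and 137 Mb of the rest, between the first and last peaks. Alternatives were another boundary, shorter lists, a stricter overlap, no last bin, no block, omission of each library in turn and a replicate block, with shares between lines taken from the smaller set of regions. Named regions are the 2 of each combination of lines with the highest mean percentile, and named bins the 3 fullest and 3 emptiest whole bins. The stretch, its members and the measures were chosen with earlier results of these data known, and the segments, the 150 to 155 Mb block and the ratio limit of 0.5 after the bins were seen. The planned list of loci was used for gene order only. Same-numbered replicates share no stated origin. The overlap code was tested on simulated lists. Tables were handled in pandas 2.3.3 and NumPy 2.4.6 under Python 3.11.15, score ranks taken with SciPy 1.17.1, and plots drawn in Matplotlib 3.10.9.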

Additional observations from a re-analysis of the deposited data

Results flagged for a closer look

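Results are given here where every library of a line lay on the opposite side of the rest of chromosome 4 from every library of another line. These differences between lines were not tested, and the lowest exact two-sided p for 2 libraries against 2 is 0.333. In the sparse bins from 142 to 147 Mb the median score percentile minus that of the rest was 15.8 and 8.25 in P19, -22.7 and -9.12 in 3T3, and 13.7 and 12.8 in E14. The 3T3 values rest on 16 and 20 peaks. Median widths there followed the same pattern, at 97 and 62.5 bp above the rest in P19, -54.5 and -78.5 bp in 3T3, and 102 and 93 bp above it in E14. In the bins from 140 to 142 Mb the width difference was -28 and -53 bp in P19, -128 and -91 bp in 3T3, and 1.5 and 21 bp in E14.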

How the results depend on the processing

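The low ratio of P19 to E14 peaks in the block from 150 to 155 Mb, 0.458 relative to the rest of chromosome 4, was 0.393 with the best-scoring 50% of each list, 0.494 with lists of 15462 peaks and 0.424 to 0.490 without single libraries. The share of E14 block peaks with a P19 peak, 43.8% on average, was 47.9% with lists of 15462 peaks, 43.3% with an overlap of 50% of the shorter peak and 28.7% to 49.8% without single libraries, and 28.7% was the value without P19 replicate 2, when fewer P19 peaks enter. These alternatives were added after the data were seen. The same-line pairing of bin profiles had the smallest mean distance under all alternatives tried (exact permutation p = 0.067 each time), which the design fixes as the lowest p.

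The distal share of chromosome 4 peaks moved with the boundary by construction. For P19, 3T3 and E14 it was 30.3%, 23.9% and 33.5% with the boundary 5 Mb earlier, 13.5%, 14.6% and 18.2% with it 5 Mb later, 19.4%, 16.0% and 23.2% without the last bin, and 16.9%, 11.8% and 16.1% without the block. With the best 50% of each list it was 18.1% in P19 and 22.3% in E14, and with lists of 15462 peaks 17.5% and 19.9%. The percentile difference, distal minus rest, was -8.84 in P19 and -7.80 in E14 with the earlier boundary. With the best 50% it was -1.27 in P19, -7.15 in 3T3 and -8.11 in E14, and with 15462 peaks -7.67 in E14. Without single libraries it ranged from -3.32 to 1.37 in 3T3. The width ratio, distal over rest, was 1.04 in P19, 0.940 in 3T3 and 1.07 in E14 with the best 50%, and 1.06, 0.948 and 1.11 with 15462 peaks. It was 0.986 in 3T3 with the later boundary. The width ratio in P19, 0.950 with all peaks, thus changed direction with shorter lists, and the cause was not tested. The replicate overlap of distal P19 peaks was 87.1% with 15462 peaks.

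Counts of distal regions changed with shorter lists, where fewer peaks entered. Unknown read depth limits them as well. With the best 50% they were 33 for all lines, 139 for E14 and P19, 16 for E14 and 3T3, 123 for E14 alone and 54 for P19 alone. With 15462 peaks they were 30, 81, 16, 39 and 43, with 8 for P19 and 3T3 and 81 for 3T3 alone. Without single libraries they ranged from 84 to 122 for all lines, 219 to 343 for E14 and P19, 17 to 51 for E14 and 3T3, 1 to 9 for P19 and 3T3, 180 to 710 for E14 alone, 75 to 300 for P19 alone and 11 to 58 for 3T3 alone. The highest counts of a single line came without E14 replicate 2, P19 replicate 1 and 3T3 replicate 1. Without a library, every peak of the remaining library of that line counted as a region, here and for the shares below.

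Of the P19 regions, 68.5% overlapped an E14 region with 15462 peaks, and 61.3% to 83.6% did so without single libraries. For 3T3 regions the share with E14 was 62.8% with the best 50%, 34.1% with 15462 peaks and 72.7% to 89.1% without single libraries. With P19 it was 47.4%, 28.1% and 52.9% to 79.6%. In a replicate block, where only equal-numbered libraries met, 71.5% of P19 peaks overlapped an E14 peak, 80.1% of 3T3 peaks an E14 peak and 63.9% of 3T3 peaks a P19 peak. Without this matching of equal-numbered libraries, the shares of reproducible regions over the whole stretch were 76.4%, 85.4% and 63.5%.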
